A study of Mus musculus with 4 samples.

Results

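The genes described here encode the cytosolic factors of translation initiation and elongation, together with a few kinases, binding proteins and methyltransferases that act on them. They were chosen by name: an annotated symbol that begins with Eif or Eef and a digit, without Eif2s3x and Eif2s3y, read by a probe set that matches 1 symbol. The rule used no difference between regions, and it found 50 of the 12393 genes with such a probe set. A gene was represented by the probe set with the highest mean over the 4 arrays. Of the 50 genes, 47 reached a mean scaled intensity of 100 and were tested, among 8409 genes tested in all.

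RNA came from wild-type C57BL/6 mouse embryos between embryonic days 10.5 and 11.0, with no treatment. The atrioventricular (AV) junction, where the valve cushions form, and the ventricular (VT) region, which is growing as working muscle, were each dissected and pooled from about 80 hearts. From the pools, 230 ng of AV RNA and 250 ng of VT RNA were amplified, and each was hybridised to Affymetrix MOE430A arrays, 2 per region, called AV 1a, AV 1b, VT 1a and VT 1b. The sources used here do not say that the arrays of a region came from separate pools, so the p-values measure the spread between arrays, which may be technical. Intensities are per array after scaling to a trimmed mean of 500. Log2 folds are AV minus VT of log2(intensity + 50), which understates changes of dim genes, and a gene passed at a limma adjusted p of at most 0.05. In pooled tissue, fewer cells of a type and less RNA per cell cannot be told apart.

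In initiation, eIF2 brings the initiator tRNA to the small ribosomal subunit, eIF3 holds that complex together, and the eIF4 factors bind the capped end of the mRNA and unwind it. eIF5 triggers GTP hydrolysis by eIF2 at the start codon, and eIF2B then recharges eIF2 with GTP. In elongation, eEF1A delivers aminoacyl-tRNAs, eEF2 moves the ribosome along, and eIF5A helps it through difficult peptide bonds. Stress kinases that phosphorylate eIF2, and 4E-BPs that sequester the cap-binding protein eIF4E, restrain initiation.

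The tissue markers followed the labels. Of 10 cushion and AV canal markers 9 were higher in the AV junction and 0 lower (10 at an unadjusted p of at most 0.05, limma), with summed intensities of 16807 and 15455 in the AV junction (1a and 1b) against 4753 and 4695 in the ventricular region. Of 10 ventricular muscle markers 0 were higher and 9 lower, with sums of 61305 and 65256 against 151467 and 166177. Most tested erythroid and hepatic markers differed with region too, while endothelial and epicardial markers were mixed. Of 11 erythroid markers 7 were lower in the AV junction, with sums of 42096 and 43354 against 79556 and 87328, and none was at or below the brightest bacterial control on all 4 arrays. Of 8 hepatic and yolk sac markers 4 were higher among 5 tested, with sums of 7631 and 7306 against 691 and 734. Afp alone gave 5214 and 4665 of the AV sums. Of 7 endothelial markers tested 2 were higher and 0 lower, with sums of 4161 and 4611 against 3086 and 3318. The log2 fold was above 0 for 6 of them and −0.71 for Emcn, which did not pass. Pecam1 and Tie1 stood at or below the brightest bacterial control on all 4 arrays. Of 8 epicardial markers 0 were higher and 2 lower (Krt18 and Krt19), with sums of 4056 and 3891 against 5022 and 4994. The log2 fold was above 0 for 3 of them (Wt1, Tbx18 and Tcf21) and below 0 for 5. The part of these cells in the differences below was not tested. All 4 arrays shared 1 chip lot, 1 fluidics station and 1 scan day.

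Of the 47 tested, 4 were higher in the AV junction (Eif4e3, Eif2b5, Eif3c and Eif4e), 4 were lower (Eif5a, Eif5, Eif4a2 and Eif4ebp1) and 39 did not pass. That is 17.0% of them, and over all genes tested 15.0% passed, 8.47% as higher and 6.54% as lower. The members are bright, and 6 of the 27 that lie among the 1682 brightest genes passed (22.2%), where 28.5% of those 1682 did, 16.9% as higher and 11.7% as lower. The median log2 fold was −0.01 against −0.06 over all genes, and median centring turned both above 0, to 0.15 and 0.10. The median size without sign was 0.14 against 0.28 over all genes and 0.24 in the 1682 brightest. No tested member reached a 2-fold difference in either direction (0 of 47), which 330 of the 8409 genes did (3.92%). The 95% interval of the fold lay within 1.5-fold either way for 33 of the 47 members (70.2%), for 33.9% of all genes and for 62.0% of the 1682 brightest. Arrays of the regions did not overlap for 25 members (53.2%), for 62.4% of all genes and for 70.9% of the 1682 brightest. Within a region the arrays differed by a median log2 value of 0.13 (AV) and 0.11 (VT) for the members. Those are differences of 2 single arrays. The median of 0.14 between regions is a difference of means of 2 arrays, which vary less, so the sizes are not directly comparable.

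**Figure D1:**
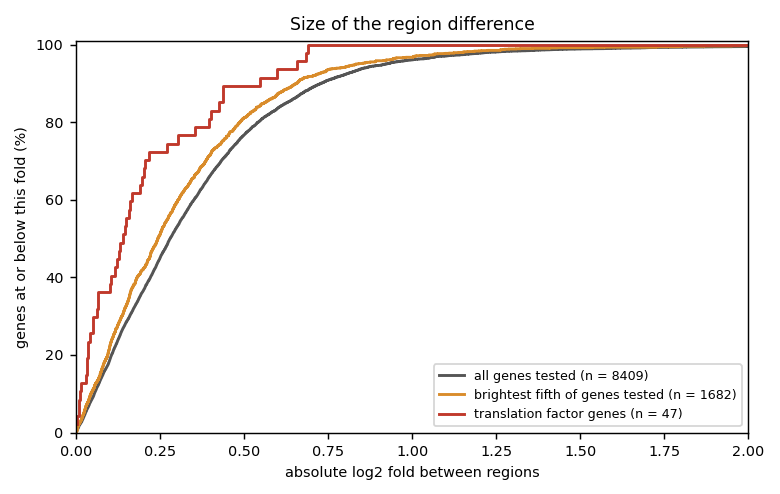
Share of genes (vertical axis, percent) whose absolute log2 fold between regions is at or below the value on the horizontal axis, for 47 translation factor genes, all 8409 genes tested and the 1682 brightest genes. The curve of the translation factor genes reaches its top at 0.69, and its median of 0.14 lies left of 0.28 for all genes and 0.24 for the 1682 brightest.

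The calls rest on small differences. With 2 arrays per region, a gene that did not pass is not shown to be equal, and its interval gives the differences that remain possible. Eif5a passed without any 1 of the 4 arrays. Eif3c passed without AV 1a or VT 1b and missed without AV 1b or VT 1a (limma, adjusted p up to 0.0935). The 6 others missed without any 1 of the 4 arrays (limma, adjusted p between 0.0598 and 0.184). Centring each array's log2 values on their median added 0.16 to every log2 fold, and then Eif4a2, Eif4ebp1 and Eif5 missed, leaving 4 higher and 1 lower. Over all genes that centring made 80.9% of the calls higher in the AV junction, against 56.4%.

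**Figure D2:**
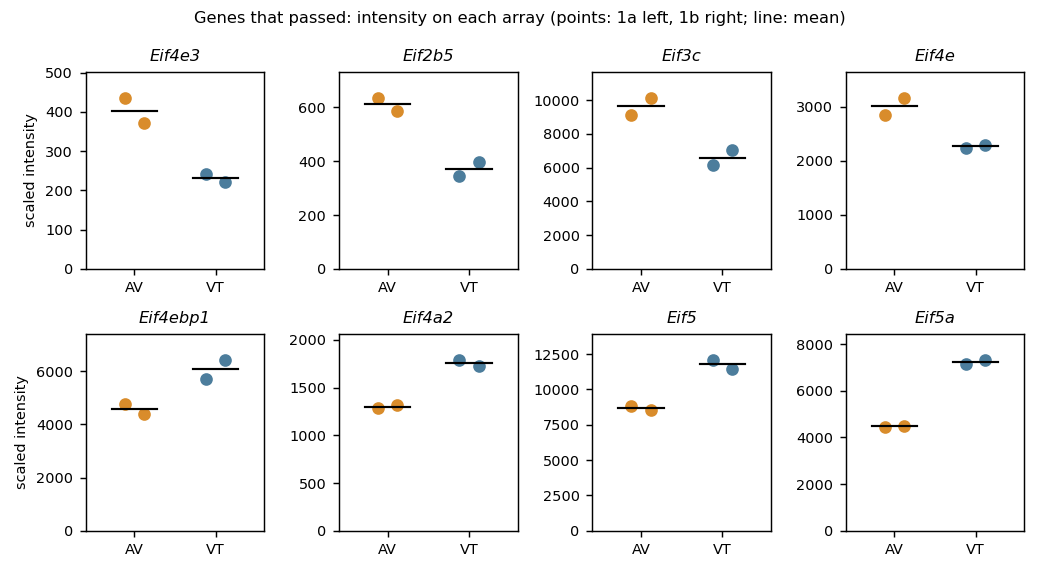
Scaled intensity (vertical axes, from 0, a scale of its own for each gene) of the 8 genes that passed, on the AV and VT arrays; points are single arrays and lines are means of n = 2. The genes are shown because they passed. No gene's AV points overlap its VT points, which also holds for 62.4% of all genes tested and 70.9% of the 1682 brightest. Eif5a, with AV points at 4463 and 4482 and VT points at 7161 and 7341, is the gene that passed without any 1 of the arrays.

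The eIF5A gene Eif5a had the lowest adjusted p of the members. eIF5A is the protein that carries the modified lysine hypusine and eases peptide bond formation at stretches such as prolines. Eif5a read 4463 and 4482 on the AV arrays, against 7161 and 7341 on the VT arrays. The means were 4473 ± 13.1 and 7251 ± 127 (SD, n = 2). The AV pair differed by a log2 value of 0.006, where the median of the members was 0.13. An SD of 2 arrays is an uncertain measure of spread, and that spread may be technical. Eif5a was 1.61-fold higher in the ventricular region (log2 fold −0.69, SE 0.09, limma adjusted p = 0.00334). Its probe set has the suffix _s_at, given to probes shared with other transcripts, and the second, of suffix _x_at, read 1498 and 1572 against 1808 and 1728 with a log2 fold of −0.20 that did not pass (limma, adjusted p = 0.225). With median centring the log2 fold of Eif5a was −0.53, and as the mean of both probe sets −0.44, and it passed in both (limma, adjusted p between 0.000102 and 0.0487 over 11 alternatives). The 2 enzymes that make hypusine, which are no members, did not pass: Dhps had a log2 fold of 0.08 and Dohh of −0.05.

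eIF6, which keeps the large ribosomal subunit from joining too early, did not pass. Eif6 read 858 and 761 on the AV arrays, against 874 and 1027 on the VT arrays, and the highest AV array lay just under the lowest VT array (log2 fold −0.22, 95% interval −0.53 to 0.09).

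The upstream stretches of 3 genes that passed are shown because their letters hold words that recur in the family's promoters. RefSeq gives windows from 250 bases before to 50 after the start, on GRCm38.p6, for 40 of the 50 genes. The word CCGGAAG, the core bound by ETS factors, stood on either strand in the windows of 14 of the 40 (35.0%) and of 9.93% of all 27025 genes. CACGTG, the E-box bound by Myc and its relatives, stood in 11 (27.5%) against 8.09%. Of 4 other words searched, TATAAA stood in 7.5% against 15.7%, CCAAT in 37.5% against 41.1%, TGACGT in 20.0% against 8.37%, and GGGCGG in 72.5% against 38.2%. Only CACGTG reads the same on both strands, and none of the 6 words contains another. The words were chosen after some of the windows had been read, genes with several starts have more windows, and a match is only a match of letters. The shares were not set beside those of other bright genes, so whether they are particular to this family was not tested. Each line runs 5′ to 3′ on the gene's strand, from 100 bases before an annotated start to 5 after, with matches to the first pair of words in capitals:
Eif4e, chr3:138527168-138527272, plus strand: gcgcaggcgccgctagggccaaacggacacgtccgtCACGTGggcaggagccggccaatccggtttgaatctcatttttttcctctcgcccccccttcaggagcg
Eif5a, chr11:69920626-69920730, minus strand: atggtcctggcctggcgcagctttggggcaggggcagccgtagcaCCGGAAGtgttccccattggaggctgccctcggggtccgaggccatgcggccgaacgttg
Eif5a, other start, chr11:69921382-69921486, minus strand: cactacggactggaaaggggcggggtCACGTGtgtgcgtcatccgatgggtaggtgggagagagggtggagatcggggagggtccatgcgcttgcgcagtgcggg
Eif3c, chr7:126566362-126566466, minus strand: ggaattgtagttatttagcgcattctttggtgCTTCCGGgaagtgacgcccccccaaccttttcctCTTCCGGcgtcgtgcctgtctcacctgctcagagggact
Eif4e and Eif5a, which share the E-box word, differed between regions in opposite directions, and Eif3c and Eif5a, which share the ETS word, did so as well. No match to either word was found in the windows of Eif2b5, Eif4a2 and Eif5.

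Among the factors of scanning and start codon choice, Eif5 alone of 5 genes passed (20.0%, beside 15.0% over all genes). Eif5, the GTPase activator of eIF2, read 8822 and 8531 on the AV arrays, against 12114 and 11435 on the VT arrays. Both VT arrays were higher, by 1.35-fold in the fit (log2 fold −0.44, SE 0.09, limma adjusted p = 0.0178). None of its 3 dimmer probe sets passed, with log2 folds of 0.28, −0.07 and −0.34 (limma, adjusted p between 0.191 and 0.804). The other 4 genes had log2 folds between −0.05 and 0.04. Eif1ax, an eIF1A gene that helps the ribosome scan, read 4694 and 4915 on the AV arrays, against 4677 and 4980 on the VT arrays, so the regions overlapped. Eif1b read 1490 and 1474 against 1478 and 1400, and Eif1a 1178 and 1534 against 1365 and 1347. Eif5b, the GTPase that joins the subunits, was dim, at 105 and 129 against 125 and 121, and its 95% interval ran from −0.61 to 0.51. A dimmer probe set of Eif1ax read 335 and 306 against 70.1 and 222, where the VT arrays disagree with each other, and did not pass (log2 fold 1.03, limma adjusted p = 0.0976).

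The exchange factor eIF2B differed in 1 of its 4 measured subunits, where 15.0% of all genes tested passed. Eif2b5, the catalytic epsilon subunit, read 637 and 587 on the AV arrays, against 346 and 395 on the VT arrays. The AV arrays were higher with no overlap, by 1.58-fold (log2 fold 0.66, SE 0.14, limma adjusted p = 0.0261), on the only probe set of this gene. Eif2b4, the delta subunit, pointed the other way with 929 and 1016 against 1138 and 1117, and did not pass (log2 fold −0.21, limma adjusted p = 0.253). The alpha and beta subunits Eif2b1 and Eif2b2 had log2 folds of −0.06 and 0.00, with AV and VT arrays that overlapped. Eif2b2 spread widely on the AV arrays, at 3571 and 2461, around VT values of 3005 and 2913. Those Eif2b2 values come from a probe set of suffix _x_at, and the dimmer tested probe sets of this gene pointed down. One stood at a log2 fold of −0.35 with overlapping regions, the other at −0.30 without overlap. Both missed the threshold (limma, adjusted p = 0.253 and 0.284), so a lower level of Eif2b2 in the AV junction remains possible. Whether Eif2b5 differs from the other subunits was not tested.

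Of eIF2 itself, the beta subunit gene Eif2s2 read 5754 and 6299 on the AV arrays, against 5639 and 5594 on the VT arrays and did not pass (log2 fold 0.10, 95% interval −0.11 to 0.31). One of its 4 other tested probe sets went against this: it read 855 and 706 against 1960 and 1401, lower in the AV junction by a log2 fold of 1.05 (−1.05, limma adjusted p = 0.0103). The remaining 3 gave log2 folds of −0.04, 0.17 and 0.23. Eif2d, a factor that can deliver initiator tRNA without eIF2, read 879 and 883 against 752 and 773, a log2 fold of 0.20 that did not pass (limma, adjusted p = 0.281).

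The 4 kinases of eIF2 were dim, and 0 of them passed, beside 15.0% over all genes (limma, with 1 at an unadjusted p of at most 0.05). So few genes cannot be set apart from that share. Eif2ak1, the haem-regulated kinase best known from red cell precursors, read 117 and 162 on the AV arrays, against 279 and 197 on the VT arrays. Both VT arrays were higher than both AV arrays, and the difference missed the adjusted threshold (log2 fold −0.60, 95% interval −1.16 to −0.04, limma adjusted p = 0.138, unadjusted p = 0.039). The second tested probe set of Eif2ak1 read 143 and 114 against 119 and 216, which overlap (log2 fold −0.25, limma adjusted p = 0.570). The erythroid markers, whose sums are given above, were lower in the same AV arrays, and their part in the Eif2ak1 values was not tested. Eif2ak4, the kinase that senses uncharged tRNA, read 346 and 286 against 230 and 240 (log2 fold 0.35, limma adjusted p = 0.213). Eif2ak3, the kinase of the endoplasmic reticulum, read 275 and 263 against 244 and 228 (log2 fold 0.16). Eif2ak2, the kinase that double-stranded RNA activates and the only tested member not above the brightest bacterial control on all 4 arrays, read 60.3 and 92.5 against 180 and 75.5, where VT 1a stood apart from the other arrays (log2 fold −0.44, 95% interval −1.26 to 0.39).

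**Figure D3:**
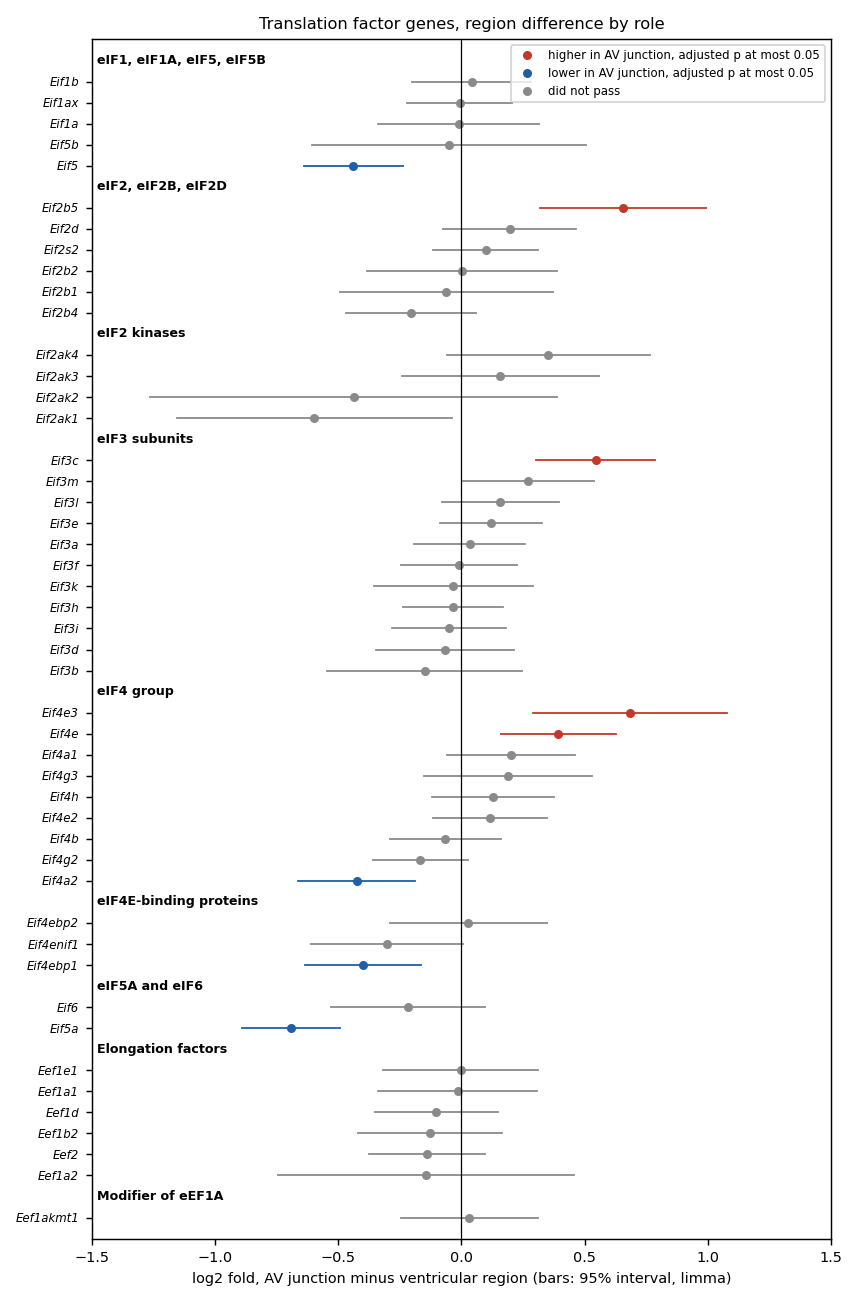
Log2 fold between regions (horizontal axis, AV minus VT) of the 47 tested genes, grouped by role, with 95% intervals from limma as bars. Most points sit near 0, the 4 higher genes lie between 0.39 and 0.68 and the 4 lower ones between −0.69 and −0.40.

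Of the eIF3 complex, 11 subunit genes were tested, of which 1 was higher and 0 were lower (2 at an unadjusted p of at most 0.05, limma). That is 9.09%, beside 15.0% of all genes and 28.5% of the 1682 brightest, to which 9 of the 11 belong. The 95% interval lay within 1.5-fold for 10 of them (90.9%), beside 33.9% of all genes and 62.0% of the 1682 brightest. The median log2 fold was −0.01, and 0.15 with median centring. Eif3c, a core subunit, was the exception, with 9148 and 10154 on the AV arrays, against 6183 and 7019 on the VT arrays. All its AV values lay above its VT values, by 1.46-fold (log2 fold 0.55, SE 0.10, limma adjusted p = 0.0159). That probe set carries the suffix _x_at, for probes that may bind other transcripts, but a probe set of Eif3c without it read 1447 and 1277 against 925 and 977 and passed as well (log2 fold 0.49, limma adjusted p = 0.0334). The other pair gave 0.18 and 0.24 and did not pass.

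The remaining eIF3 subunits had log2 folds between −0.15 and 0.27. Eif3e read 14181 and 13441 on the AV arrays, against 12285 and 13109 on the VT arrays. The AV arrays were a little higher, and the gene did not pass (log2 fold 0.12, limma adjusted p = 0.381). Eif3f read 11819 and 13329 against 12044 and 13255, which overlap fully. Eif3m read 1110 and 1105 against 869 and 951 without overlap and did not pass (log2 fold 0.27, limma adjusted p = 0.153). Its second probe set gave −0.50. The scaffold subunit Eif3a had a log2 fold of 0.03 and Eif3b one of −0.15.

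The eIF4 group held 3 of the 8 calls. Among its 9 genes 2 were higher and 1 was lower (33.3%, beside 15.0% over all genes and 28.5% of the 1682 brightest, to which 7 of the 9 belong). The median log2 fold was 0.13, and it was 0.29 with median centring and between 0.056 and 0.18 with 1 array left out (lowest without AV 1a). Eif4e, the cap-binding protein and the target of 4E-BPs, read 2839 and 3165 on the AV arrays, against 2241 and 2296 on the VT arrays. The AV arrays were higher, by 1.31-fold (log2 fold 0.39, SE 0.10, limma adjusted p = 0.0419). Its 2 dimmer probe sets gave 0.16 and 0.09 and did not pass. Eif4e also missed with quantile normalisation (limma, adjusted p between 0.0123 and 0.205 over 12 alternatives).

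Eif4e3, a divergent cap-binding relative of eIF4E, had the largest fold of the higher genes and low intensities. It read 437 and 371 on the AV arrays, against 243 and 221 on the VT arrays. Both AV arrays were higher, by 1.61-fold (log2 fold 0.68, SE 0.17, limma adjusted p = 0.0375), while its second, dimmer probe set gave −0.12 and did not pass. Eif4e2, a cap-binding protein that acts in repression, did not pass on its brightest probe set, with 2862 and 2628 against 2456 and 2597 (log2 fold 0.12). The 2 dimmer probe sets of Eif4e2 pointed down: one read 721 and 661 against 950 and 927 (log2 fold −0.42, limma adjusted p = 0.0592), and the other read 175 and 238 against 394 and 470 and was lower in the AV junction (log2 fold −0.92, limma adjusted p = 0.0221).

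Of the helicase paralogs 1 passed. Eif4a2, the second form of the eIF4A helicase, read 1281 and 1316 on the AV arrays, against 1793 and 1728 on the VT arrays. The VT arrays were higher, by 1.34-fold (log2 fold −0.43, SE 0.10, limma adjusted p = 0.0342), on the only probe set of this gene. Eif4a1, the main helicase of initiation, read 5383 and 5307 against 4223 and 5106, with both AV arrays above both VT arrays, and did not pass (log2 fold 0.20, 95% interval −0.06 to 0.46). Its 2 dimmer probe sets gave log2 folds of −0.03 and 0.29 and missed too. Whether the paralogs differ from each other in fold was not tested. Their helper genes Eif4b and Eif4h had log2 folds of −0.07 and 0.13. Eif4h read 10548 and 12463 on the AV arrays, against 10133 and 10833 on the VT arrays, which overlap.

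Of the scaffolds, Eif4g2, which supports translation without eIF4E, read 12827 and 12969 on the AV arrays, against 14258 and 14694 on the VT arrays. The VT arrays were higher without overlap, but the fold was small and did not pass (log2 fold −0.17, limma adjusted p = 0.217), and its 2 other tested probe sets gave 0.12 and 0.17. Eif4g3 read 1083 and 851 against 796 and 879, which overlap (log2 fold 0.19).

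Among the proteins that bind and restrain eIF4E, 1 of 3 genes passed (33.3%, beside 15.0% over all genes). Eif4ebp1, the 4E-BP that mTOR releases from eIF4E by phosphorylation, read 4766 and 4404 on the AV arrays, against 5709 and 6436 on the VT arrays. The VT arrays were higher, by 1.32-fold (log2 fold −0.40, SE 0.10, limma adjusted p = 0.0402). The call comes from an _x_at probe set, and the 2 probe sets without that suffix gave −0.11 and −0.26 and did not pass (limma, adjusted p = 0.577 and 0.355). Eif4ebp2 read 1006 and 914 against 1040 and 848, which overlap (log2 fold 0.03). Its dimmer tested probe sets gave −0.03, −0.74 and −0.28 and did not pass (limma, adjusted p between 0.0984 and 0.924). The one at −0.74 read 76.1 and 133 on the AV arrays, against 214 and 194 on the VT arrays, without overlap. Eif4enif1, which carries eIF4E into the nucleus and processing bodies, read 1018 and 1212 against 1485 and 1284, lower on both AV arrays, and did not pass (log2 fold −0.30, 95% interval −0.61 to 0.01, limma adjusted p = 0.169). Eif4e and Eif4ebp1 thus had folds in opposite directions, each of less than 1.5-fold. Eif4ebp1 missed with median centring, Eif4e with quantile normalisation, and both with probe sets averaged per gene. Whether the 2 genes differ from each other in fold was not tested.

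**Figure D4:**
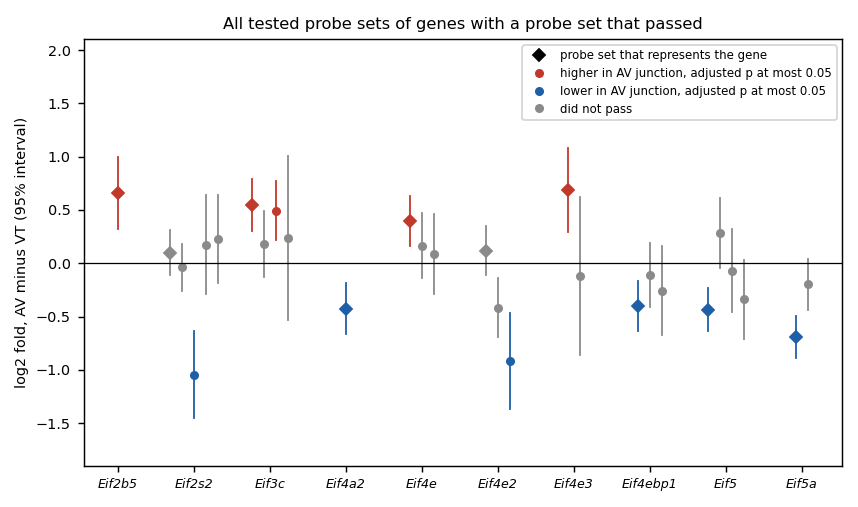
Log2 fold (vertical axis, AV minus VT, with 95% interval) of every tested probe set of the 10 genes with a probe set that passed; diamonds are the probe sets that represent a gene. Only Eif3c has a second probe set that passed in the same direction, and in Eif2s2 and Eif4e2 a dimmer probe set passed while the brightest did not.

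The elongation factors themselves did not pass. Of 6 genes tested 0 were higher and 0 lower (limma; 0 at an unadjusted p of at most 0.05), a count too small to set apart from the 15.0% over all genes, with a median log2 fold of −0.11, which median centring moved to 0.04. Eef1a1, which encodes the main eEF1A, read 27436 and 34529 on the AV arrays, against 28321 and 34115 on the VT arrays. In both regions array 1b was the higher, and the regions overlapped (log2 fold −0.01, 95% interval −0.34 to 0.31). Eef1a2, the form that replaces Eef1a1 in adult heart, muscle and neurons, read 358 and 618 against 628 and 441, so each pair spread widely (log2 fold −0.14, 95% interval −0.75 to 0.46).

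Eef1b2 and Eef1d, which recharge eEF1A with GTP, had log2 folds of −0.13 and −0.10. Eef1b2 read 4969 and 5359 on the AV arrays, against 6341 and 5017 on the VT arrays, which overlap. Eef2, the translocase, read 3161 and 3354 against 3386 and 3808. Its VT arrays lay just above its AV arrays, and the difference did not pass (log2 fold −0.14, 95% interval −0.38 to 0.10, limma adjusted p = 0.381). Eef1e1, a small eEF1-like protein of the tRNA synthetase complex, had a log2 fold of 0.00.

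Among 4 genes for enzymes that modify elongation factors, 3 were too dim to test. Eef1akmt1, a lysine methyltransferase of eEF1A, read 869 and 862 on the AV arrays, against 804 and 888 on the VT arrays (log2 fold 0.03). Eef2k, the kinase that stops eEF2, read 78.4 and 118 against 58.3 and 114. Eef2kmt read 10.7 and 9.72 against 27.2 and 27.5, and Eef1aknmt 8.38 and 6.70 against 14.1 and 40.2, and both stood below the brightest bacterial control on all 4 arrays, so they have no measured level here.

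Probe sets of 1 gene often gave different folds. Of the 25 members with more than 1 tested probe set, 11 had log2 folds of 1 sign throughout. Of 47 tested probe sets that do not represent a gene, 1 was higher and 2 lower in the AV junction, where 13.8% of all 13403 probe sets tested passed. The spread within a gene was widest in Eif2s2, from −1.05 to 0.23, and narrowest in Eif1a and Eif3i, at about 0.01. The RNA was amplified, and the 3′/5′ intensity ratio lay between 16.6 and 23.4 for actin and between 15.0 and 18.4 for Gapdh; its part in the disagreement of probe sets was not tested.

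Of other genes of translation, which the rule leaves out, 18 tested genes act in release, recycling and as poly(A) and factor partners. Of these 3 were higher and 1 lower, a share of 22.2% beside 15.0% over all genes, with a median absolute log2 fold of 0.21 beside 0.28 over all genes. Paip1, which bridges poly(A)-binding protein and eIF4A, read 562 and 530 on the AV arrays, against 301 and 304 on the VT arrays (log2 fold 0.76, limma adjusted p = 0.0156). The AV arrays were higher, and the spread within a pair, which may be technical, was small. Abce1, which splits ribosomes after termination, read 1158 and 1051 against 757 and 790 (log2 fold 0.49, limma adjusted p = 0.0354). Paip2, which displaces poly(A)-binding protein, read 5754 and 5625 against 4122 and 4425 (log2 fold 0.41, limma adjusted p = 0.0262). Hbs1l, a rescue factor of stalled ribosomes, was lower in the AV junction, at 1414 and 1373 against 1991 and 1988 (log2 fold −0.50, limma adjusted p = 0.0181). These 4 missed without any 1 of the 4 arrays (limma, adjusted p between 0.0528 and 0.138), and Abce1 had a log2 fold of 0.07 on its brightest probe set without the suffix _s_at.

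Of 14 genes for mTOR, MNK and AKT kinases and the eIF2 stress response, 1 was lower and 0 were higher (2 at an unadjusted p of at most 0.05, limma), or 7.14% beside 15.0% over all genes. The log2 fold was below 0 for 12 of the 14, with a median of −0.24. Over all 8409 genes it was below 0 for 4642, with a median of −0.06. These values are before the shift of 0.16 that median centring adds. Atf4, the factor whose mRNA is translated when eIF2 is phosphorylated, read 1678 and 1424 on the AV arrays, against 2534 and 2113 on the VT arrays. The VT arrays were higher, by a log2 fold of −0.57 (limma, adjusted p = 0.0309). Atf4 missed without AV 1b, VT 1a or VT 1b (limma, adjusted p up to 0.150), and without _x_at probe sets its log2 fold was −0.16. Mtor had a log2 fold of −0.08 and Rheb, its activator, of −0.07. Of 5 mitochondrial factor genes 0 passed, beside 15.0% over all genes (limma, with 1 at an unadjusted p of at most 0.05). Their log2 folds ran from −0.33 for Mtif2 to 0.07 for Gfm1.

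**Figure D5:**
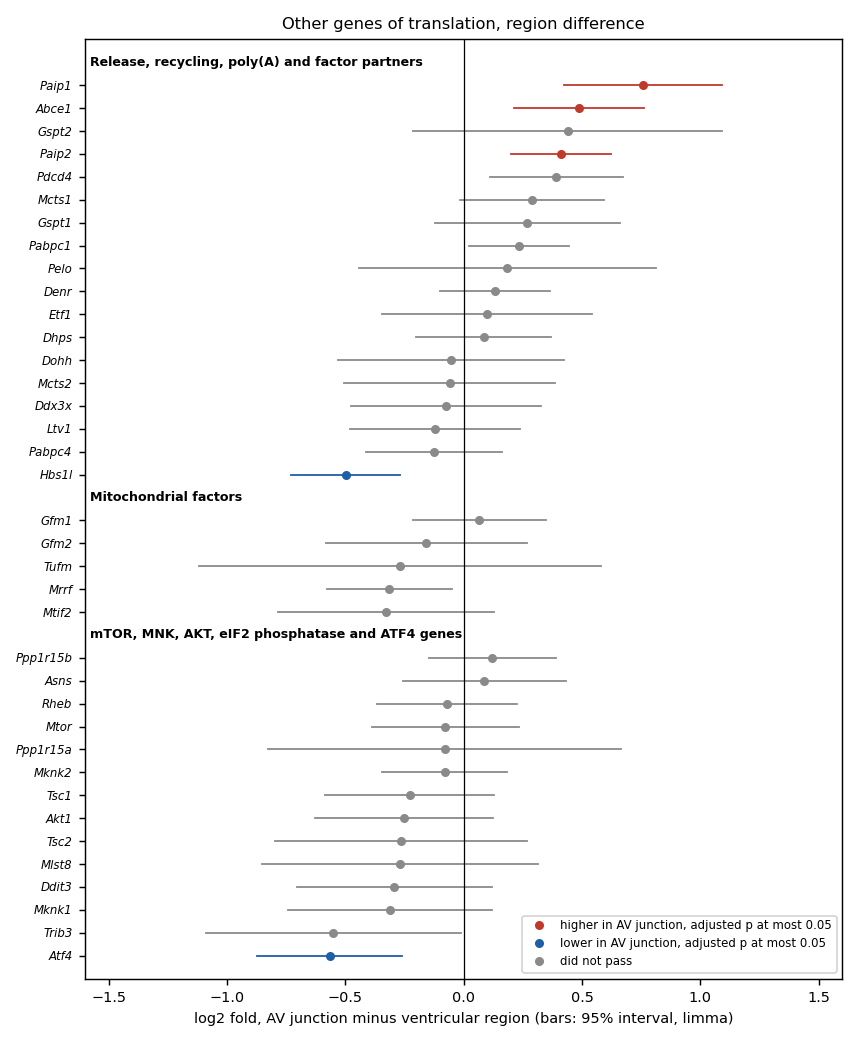
Log2 fold between regions (horizontal axis, AV minus VT) with 95% intervals from limma for the 37 tested genes of translation that are outside the Eif and Eef families, grouped by role. The 3 higher genes are Paip1, Abce1 and Paip2 and the 2 lower ones Hbs1l and Atf4.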

How the data were processed

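Each array's deposited table holds an intensity for every probe set, unlogged, that the authors computed using MAS5 (submitters' processing notes, per the labels); the software version is not given in the sources used here. The 64 control probe sets were left out of the fit. The 22626 others were scaled to a 2% trimmed mean of 500 per array (factor 3.35), and 13403 with a mean of at least 100 were tested. Log2(intensity + 50) was modelled on region alone with limma 3.58.1 (R 4.3.3; lmFit and eBayes, trend on), with Benjamini-Hochberg adjustment over the probe sets tested. With 2 arrays a region, no exact two-sided permutation test can fall below p = 0.333, and none was run. The fit was tested on simulated data. Symbols come from the platform annotation. Values are printed for all 4 arrays of each gene that passed, and in each role for the 2 brightest and the 2 with the largest fold; of other genes of translation, those that passed are named. Eif2b1, Eif2b2, Eif3a, Eif3b, Eif3m, Eif4b, Eif4g3, second probe sets, and Dhps, Dohh, Mtor, Rheb, Mtif2 and Gfm1 were named after values were seen. Values or folds of Eif1a, Eif1b, Eif2d, Eif4a1, Eif4e2, Eif4ebp2, Eef1d, Eef1e1, Eef1aknmt and Eef2kmt are given though the rule for printed values does not call for them. The members and lists were chosen with earlier results of these data known. The brightest of 27 Bacillus subtilis controls on each array served as background. The array numbers 1a and 1b name arrays and were not taken as pairs. Figures used matplotlib 3.10.9 in Python 3.11.15. Promoter letters are RefSeq's.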

Additional observations from a re-analysis of the deposited data

How the results depend on the processing

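The counts above changed with several settings, and 2 arrays per region limit the precision. Without a floor, 0 members were higher and 1 lower (limma; 5 and 4 at an unadjusted p of at most 0.05), and of other translation genes 1 and 1. With eBayes without trend, 0 and 1 (4 and 5 unadjusted), and of the others 1 and 0 (4 and 3 unadjusted); Eif5a was the lower member in both settings. With probe sets averaged per gene, 1 (Eif2b5) and 3, and 1 lower other gene. The 3 lower members were then Eif4a2, Eif5a and Eif4e2, which had not passed on its brightest probe set, while Eif5 and Eif4ebp1 missed. Without _x_at and _s_at probe sets, 2 lower, and 1 lower other gene. With median centring, 1 lower, and of the others 5 higher and 0 lower (limma; 9 and 2 unadjusted). Over all genes tested, 712 and 550 became 429 and 259 without a floor and 243 and 209 without trend. The replicate block (1a or 1b) left 4 and 4 members, the same genes; same-numbered arrays deviated with r = 0.06 across probe sets, so no pairing was taken.

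With 1 array left out, 0 to 1 members were higher, 1 to 1 lower, and of other genes 0 to 0 higher (3 to 6 unadjusted, limma) and 0 to 1 lower.

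Median log2 folds moved with median centring to 0.15 (all members), 0.15 (start site factors), 0.21 (eIF2 and eIF2B), 0.15 (eIF3), 0.29 (eIF4), −0.14 (4E-binding) and 0.044 (elongation). With probe sets averaged per gene they were −0.043 (all), −0.089 (eIF2 and eIF2B) and −0.034 (eIF3), and for 4E-binding −0.37 with quantile normalisation and −0.11 without _x_at and _s_at. Leaving out 1 array gave −0.021 to 0.026 (all), −0.16 to 0.034 (start site), 0.0098 to 0.13 (eIF2 and eIF2B), −0.34 to 0.098 (eIF2 kinases), −0.0042 to 0.075 (eIF3), 0.056 to 0.18 (eIF4), −0.34 to −0.18 (4E-binding) and −0.18 to −0.033 (elongation). Eif3m turned to −0.11 with its probe sets averaged. The cause was not tested. Some settings left no probe set to test: Eif5a and Eif3m without _x_at and _s_at, Eif4e3 with the values as deposited, and Eif2ak1 with those values or a floor of 300.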
